A study of Arabidopsis thaliana with 9 samples.

Results

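A set of 10 genes of the shikimate pathway of Arabidopsis thaliana was examined across 9 RNA-seq libraries of whole rosettes. They were taken by locus identifier and were 10 of the 33323 genes listed. They encode the DAHP synthases DHS1 (AT4G39980) and DHS2 (AT4G33510), 3-dehydroquinate synthase (AT5G66120, DHQS), the fused 3-dehydroquinate dehydratase and shikimate dehydrogenase (AT3G06350, DHD/SDH), and the shikimate kinases SK1 (AT2G21940) and SK2 (AT4G39540). The others encode EPSP synthases (AT2G45300 and AT1G48860), chorismate synthase (AT1G48850, CS) and chorismate mutase 1 (AT3G29200, CM1), which takes chorismate towards phenylalanine and tyrosine. All 10 had enough counts to be tested, among 19405 genes that did.

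Libraries came from wild-type Col-0 and from the mutant lines jazQ and jazD, with 3 biological replicates each. As background, jazQ carries mutations in 5 and jazD in 10 of the 13 JAZ genes, and the 5 mutated in jazQ are also mutated in jazD. The labels name the lines but neither the genes nor the alleles, and they give the accession as Col-0 for all plants, with an unexplained asterisk for jazD. All plants were untreated, 23 days old and grown at 20 °C under 16 h light and 8 h dark, and each library pooled about 20 rosettes without roots.

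The shikimate pathway runs in plastids and joins phosphoenolpyruvate and erythrose 4-phosphate into chorismate, the last common precursor of tryptophan, phenylalanine and tyrosine, and also of salicylate and folates. DAHP synthase catalyses the entry step, and EPSP synthase is the target of the herbicide glyphosate. JAZ proteins repress transcription factors such as MYC2 until the hormone jasmonate triggers their breakdown. Tryptophan and phenylalanine feed indole glucosinolates and phenylpropanoids, both classes of defence compounds in rosette leaves.

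Total counts ran from 15370271 to 20730459 per library. JAZ1, mutated in both lines, was at 23.8 to 26.5 CPM (counts scaled to library size) in Col-0, 2.54 to 2.79 in jazQ and 2.05 to 2.69 in jazD. JAZ2, mutated only in jazD, was at 21.1 to 26.9, 29.7 to 47.3 and 2.63 to 3.46 CPM. Other genes mutated in jazD lay on both sides of Col-0. JAZ3, JAZ5, JAZ9, JAZ10 and JAZ13 were above Col-0 in every jazD library, with JAZ10 at 35.1 to 47.7 against 3.06 to 3.4 CPM. JAZ4, JAZ6 and JAZ7 were below it. JAZ6 was at 11.9 to 13.7 against 57.3 to 68.8 CPM, and JAZ7 at 0 to 0.117 against 0.581 to 1.83 CPM. Summed, the 4 rosette leaf markers came to 44400 to 46300 CPM in Col-0, 42900 to 50700 in jazQ plants and 40800 to 42100 in jazD, so the jazD libraries lay below all others. Of these 4, RCA (Rubisco activase) was called lower in jazD against Col-0 (log2 fold change -0.50 ± 0.0672, edgeR adjusted p = 1.18e-04). The 5 root markers came to at most 0.289 CPM. The 3 trichome markers summed to 15.4 to 16.2 CPM in Col-0, 22.5 to 26.1 in jazQ plants and 21.4 to 23.4 in jazD, and the 2 guard cell markers to 27.5 to 32.9, 36.6 to 40.3 and 33.0 to 37.4 CPM. Of the guard cell markers, FAMA was called higher in jazD against Col-0 (log2 fold change 0.39 ± 0.0961, edgeR adjusted p = 0.00895). MYB60 was lower in every jazD library than in Col-0 but was not called (-0.25 ± 0.0921, edgeR adjusted p = 0.0672). The 4 flower markers summed to at most 0.978 CPM in any library. The senescence genes SAG12 and NAP summed to 3.55 to 4.43 CPM in Col-0, 2.39 to 3.54 in jazQ and 20.2 to 26.0 in jazD, so every jazD library was above all others. The part of these markers in the results was not tested. In bulk rosettes, fewer cells of a type and less RNA per cell cannot be told apart.

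The 300 bases before the annotated gene start are shown for DHS1, the member with the largest difference, for SK2, and for the EPSP synthase genes, of which AT2G45300 was called in jazD and AT1G48860 was not. They were read from the RefSeq genome TAIR10.1 by the gene starts of its own annotation, since the count tables name TAIR10 and hold no coordinates. Capitals mark a match to CACGTG (the G-box, a site type bound by MYC factors), AACGTG (the T/G-box, a related site type) or GCCGCC (the GCC-box, a site type bound by ERF factors), searched on both strands.
DHS1, chr4:18539211-18539510, plus strand: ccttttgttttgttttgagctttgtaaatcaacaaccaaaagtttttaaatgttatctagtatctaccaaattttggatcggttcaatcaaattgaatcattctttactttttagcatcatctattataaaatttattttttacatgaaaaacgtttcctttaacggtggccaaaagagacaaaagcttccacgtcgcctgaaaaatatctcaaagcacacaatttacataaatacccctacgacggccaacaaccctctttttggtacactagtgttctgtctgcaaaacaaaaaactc
SK2, chr4:18377925-18378224, plus strand: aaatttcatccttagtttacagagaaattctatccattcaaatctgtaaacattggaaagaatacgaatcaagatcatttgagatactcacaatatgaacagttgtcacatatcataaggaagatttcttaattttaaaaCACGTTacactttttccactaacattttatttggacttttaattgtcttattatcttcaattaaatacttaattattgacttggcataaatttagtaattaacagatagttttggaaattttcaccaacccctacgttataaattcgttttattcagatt
EPSPS AT2G45300, chr2:18677011-18677310, plus strand: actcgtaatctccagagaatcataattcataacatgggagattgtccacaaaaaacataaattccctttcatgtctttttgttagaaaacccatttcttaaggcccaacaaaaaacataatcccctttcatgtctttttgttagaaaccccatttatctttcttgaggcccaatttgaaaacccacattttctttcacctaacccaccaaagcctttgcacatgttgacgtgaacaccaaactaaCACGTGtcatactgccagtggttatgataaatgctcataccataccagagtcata
EPSPS AT1G48860, chr1:18071668-18071967, minus strand: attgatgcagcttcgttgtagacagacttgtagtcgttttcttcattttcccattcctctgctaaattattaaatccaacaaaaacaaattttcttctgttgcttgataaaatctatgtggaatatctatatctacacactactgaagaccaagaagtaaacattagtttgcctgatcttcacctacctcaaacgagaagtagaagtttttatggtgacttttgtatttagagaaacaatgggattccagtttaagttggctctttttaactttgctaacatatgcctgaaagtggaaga
The AT2G45300 window held a G-box 55 bases before the start, and the SK2 window held a T/G-box, read as CACGTT on the gene's strand, 160 bases before it. No match to these letters lay in the DHS1 or AT1G48860 window. Of the 10 members, 1 had a G-box, 2 had a T/G-box (SK2 and DHD/SDH) and 0 had a GCC-box. Among 27443 windows of the same length before protein-coding genes, 7.09% held a G-box, 8.71% a T/G-box and 2.26% a GCC-box. A match describes the letters only.

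In jazD, transcripts of 5 of the 10 genes rose against Col-0 and 0 fell, by edgeR's quasi-likelihood test at an adjusted p under 0.05. Those that rose were DHS1, DHS2, SK2, AT2G45300 and CS, so that DAHP synthase, shikimate kinase, EPSP synthase and chorismate synthase each had a gene among them. Of all genes tested, 25.8% were called in this comparison, 13.3% higher and 12.5% lower. The median log2 fold change was 0.175 over the 10 members and -0.00257 over all genes tested. The jazD libraries did not overlap Col-0 for the same 5 genes, all higher, where 21.4% of all genes tested were higher without overlap and 21.2% lower. DHS1 was the only member above a 2-fold rise, and the other 4 that rose did so by 1.17-fold to 1.32-fold.

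**Figure D1:**
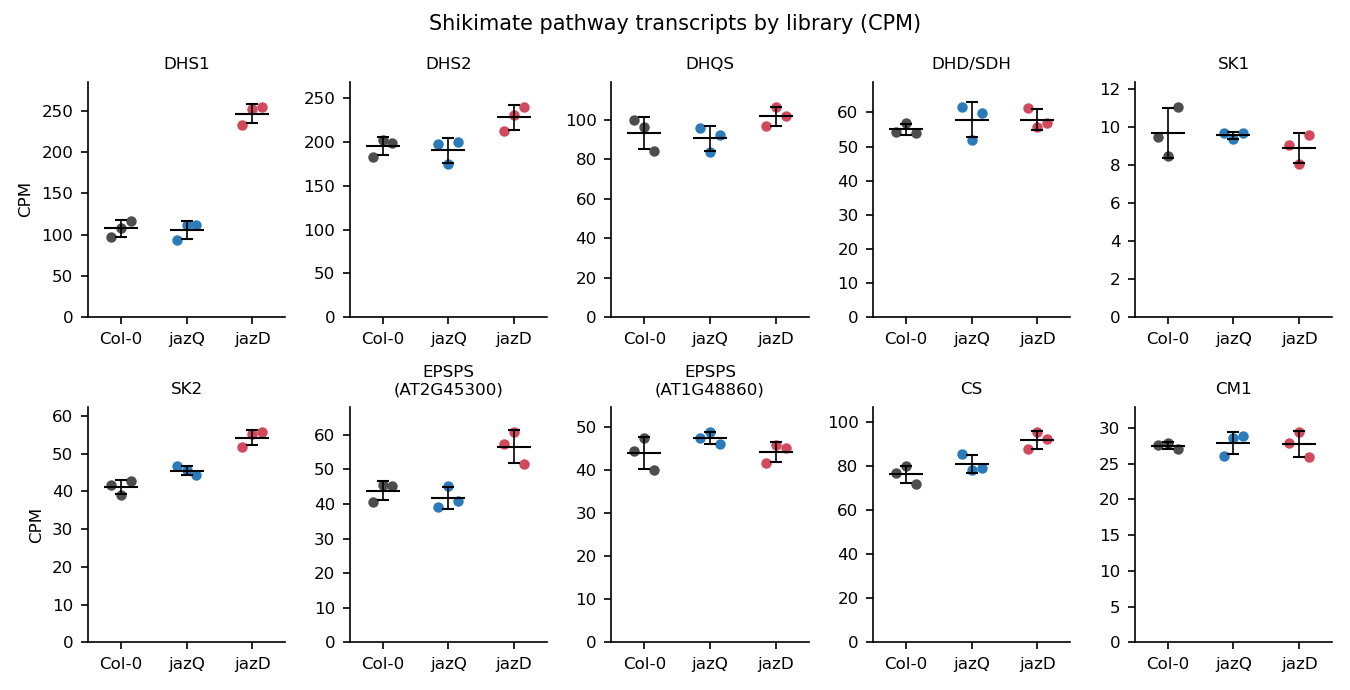
Level of each of the 10 genes in CPM (vertical axes, each from 0) in the 3 genotypes. Points are libraries, long lines are group means and short bars are SD, n = 3; the jazD points of DHS1 lie at 233 to 255 CPM, above every Col-0 and jazQ point.

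DHS1, a DAHP synthase of the entry step, was at 97.2, 108 and 117 CPM in Col-0, 93.4, 112 and 112 in jazQ, and 233, 252 and 255 in jazD. The 3 jazD libraries lay far above the 6 others, while Col-0 and jazQ overlapped. Against Col-0 the log2 fold change in jazD was 1.197 ± 0.0843 (SE), a 2.29-fold rise with an adjusted p of 2.86e-07 in edgeR. By log2 fold change, from the highest, the gene ranked 667 of 19405. DHS2, a second DAHP synthase gene, was at 183, 202 and 199.5 CPM in Col-0, 198, 175 and 200.2 in jazQ, and 213, 231 and 240.5 in jazD. All jazD libraries were above all others, and the gap between the groups was smaller than for DHS1. Its log2 fold change in jazD against Col-0 was 0.23 ± 0.0703, with an edgeR adjusted p of 0.0314. Leaving out Col-0 replicate 1, jazD replicate 2 or jazD replicate 3 ended this call, with log2 fold changes of 0.18, 0.22 and 0.19. DHS2 overlaps the annotated gene AT4G33500, which fell in jazD (log2 fold change -0.21 ± 0.0663, edgeR adjusted p = 0.0314). Whether the libraries kept strand is not given in the sources used here.

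Neither gene of the middle steps passed the test. DHQS, which closes the ring of dehydroquinate, was at 99.6, 96.2 and 84.0 CPM in Col-0, 95.9, 83.4 and 92.3 in jazQ, and 96.9, 106 and 102 in jazD. Its jazD and Col-0 libraries overlapped. The log2 fold change was 0.12, with a 95% interval from -0.040 to 0.29 and an edgeR adjusted p of 0.264. DHD/SDH, which makes shikimate, was at 54.2, 57.0 and 54.0 CPM in Col-0, 61.7, 52.0 and 60.0 in jazQ, and 61.3, 55.6 and 56.8 in jazD. The groups overlapped, and the interval of its log2 fold change in jazD ran from -0.084 to 0.23 (edgeR adjusted p = 0.511).

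Of the shikimate kinase genes, whose enzymes add a phosphate to shikimate, only SK2 was called in jazD. SK2 was at 41.7, 39.0 and 42.8 CPM in Col-0, 46.6, 45.6 and 44.4 in jazQ, and 51.9, 55.2 and 55.8 in jazD. The 3 groups did not overlap, with jazQ between the other groups. The log2 fold change in jazD against Col-0 was 0.40 ± 0.0626, a 1.32-fold rise (edgeR adjusted p = 4.12e-04). SK1 was at 9.50, 8.50 and 11.1 CPM in Col-0, 9.71, 9.38 and 9.68 in jazQ, and 9.08, 8.07 and 9.60 in jazD. Its groups overlapped, and the interval of its log2 fold change in jazD ran from -0.37 to 0.12 (edgeR adjusted p = 0.471). SK1 overlaps AT2G21950, which rose in jazD (log2 fold change 0.22 ± 0.0684, edgeR adjusted p = 0.0318).

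Of the EPSP synthase genes, only AT2G45300 was called in jazD. AT2G45300 was at 40.6, 45.5 and 45.3 CPM in Col-0, 39.2, 45.2 and 40.9 in jazQ, and 57.4, 60.8 and 51.5 in jazD. Each jazD library was above all Col-0 and jazQ libraries. The log2 fold change in jazD against Col-0 was 0.37 ± 0.0806, a 1.29-fold rise (edgeR adjusted p = 0.00453). The call was lost with limma on log2 TPM without alignment of libraries, with log2 fold changes of 0.28 to 0.29. AT1G48860 was at 44.6, 47.5 and 40.1 CPM in Col-0, 47.6, 48.9 and 46.0 in jazQ, and 41.8, 46.0 and 45.2 in jazD. Its jazD and Col-0 libraries overlapped, with a log2 fold change of 0.0084, an interval from -0.15 to 0.17 and an edgeR adjusted p of 0.951. Of the 50-base stretches of AT2G45300 transcripts, 4.38% also occurred exactly in AT1G48860 or AT2G42240. For AT1G48860 transcripts, 5.09% also occurred in AT2G45300. Inexact matches were not counted, and the part of shared reads in these values was not tested.

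CS, which makes chorismate, was at 76.55, 79.8 and 72.0 CPM in Col-0, 85.6, 78.0 and 78.9 in jazQ, and 87.6, 95.4 and 92.3 in jazD. The jazD libraries lay above all others, and jazQ overlapped Col-0. Its log2 fold change in jazD against Col-0 was 0.27 ± 0.0638, a 1.21-fold rise (edgeR adjusted p = 0.00738). With limma on log2 TPM, filtered for low values and without alignment of libraries, it was 0.19 and not called. CS and AT1G48860 are neighbours on the minus strand of chromosome 1, 543 bases apart in TAIR10.1, and lie 130.2 and 134 kb from JAZ4, which is mutated in both lines. The part of that linkage in their values was not tested. CM1, at the first step after chorismate towards phenylalanine and tyrosine, was at 27.6, 27.9 and 27.0 CPM in Col-0, 26.1, 28.6 and 28.9 in jazQ, and 27.9, 29.4 and 25.9 in jazD. Its groups overlapped, and the interval of its log2 fold change in jazD ran from -0.15 to 0.17 (edgeR adjusted p = 0.936).

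On the TPM scale, which accounts for transcript length, DHS2 had the highest level in Col-0 at 139 ± 7.88 TPM (SD, n = 3) and SK1 the lowest at 8.22 ± 1.17. Between them came DHQS at 76.2 ± 6.06, DHS1 at 72.9 ± 7.32, CS at 58.5 ± 2.61, SK2 at 45.4 ± 2.46, DHD/SDH at 34.1 ± 0.92, AT1G48860 at 30.4 ± 2.35, AT2G45300 at 28.8 ± 1.96 and CM1 at 26.3 ± 0.277 TPM. Libraries of the neighbours DHQS and DHS1, of AT1G48860 and AT2G45300, and of AT2G45300 and CM1 overlapped in this order. In jazD, DHS1 stood at 159 ± 8.64 TPM and overlapped DHS2 at 155 ± 10.7 TPM.

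**Figure D2:**
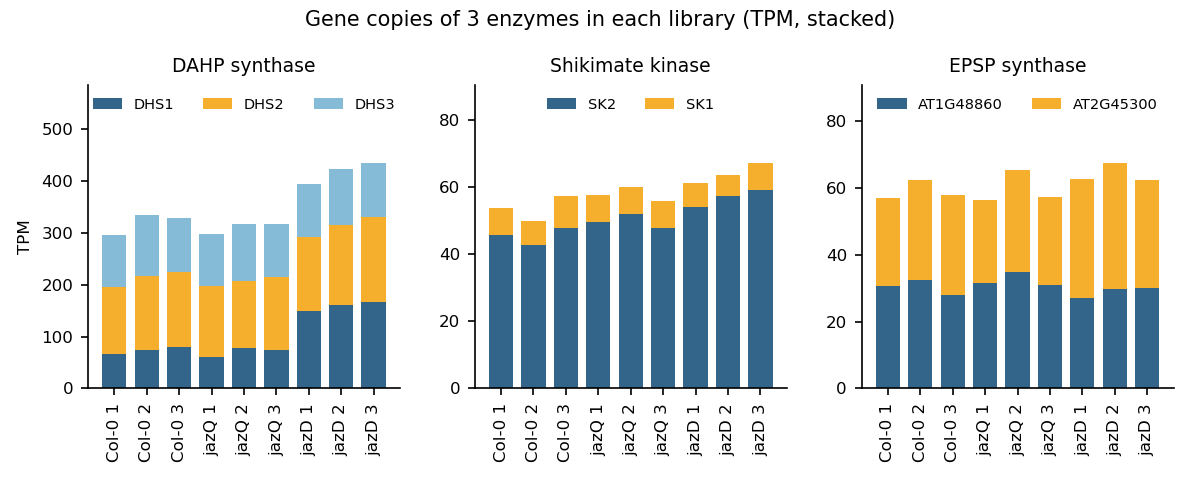
Stacked TPM of the gene copies of DAHP synthase, shikimate kinase and EPSP synthase in each of the 9 libraries, with TPM on the vertical axes from 0. The DHS1 segment is 149 to 166 TPM in the jazD libraries and 61.0 to 80.1 TPM in the others.

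Copies of an enzyme were compared with each other by their share of the enzyme's summed TPM in each library. DHS1 made up 22.1, 21.8 and 24.3% of the summed TPM of DHS1, DHS2 and the related DHS3 in Col-0, 20.5, 24.6 and 23.4% in jazQ, and 37.8, 37.8 and 38.2% in jazD. The jazD share was 15.2 percentage points above Col-0 without overlap, with a two-sided exact permutation p of 0.1, the smallest that 3 against 3 libraries allow. AT1G48860 made up 53.5, 52.2 and 48.1% of the EPSP synthase TPM in Col-0, 56.0, 53.1 and 54.1% in jazQ, and 43.2, 44.2 and 47.9% in jazD. Its jazD shares were all below the Col-0 shares, with a mean difference of -6.18 points (exact permutation p = 0.1). For SK2 the share of the kinase TPM was 84.7 ± 1.17% for Col-0, 86.1 ± 0.357% for jazQ and 88.8 ± 0.972% for jazD. The jazD libraries did not overlap Col-0 (exact permutation p = 0.1).

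Summed over copies, DAHP synthase counts rose 1.38-fold in jazD against Col-0 (log2 fold change 0.46 ± 0.0623, edgeR adjusted p = 1.15e-04), and shikimate kinase counts 1.24-fold (0.31 ± 0.0636, adjusted p = 0.00282). EPSP synthase counts rose 1.15-fold (0.20 ± 0.0638, edgeR adjusted p = 0.0358). That last call was lost in 4 of the fits that leave out a library, those without Col-0 replicate 1 or 3 and without jazD replicate 1 or 2, with log2 fold changes of 0.18, 0.18, 0.21 and 0.16. DHS3 itself, at 148, 175 and 155 CPM in Col-0 and 158, 171 and 158 in jazD, had a log2 fold change of 0.028 ± 0.0662 (edgeR adjusted p = 0.805).

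In jazQ, 0 of the 10 genes passed the test against Col-0 in either direction with edgeR, and the DESeq2 Wald test and limma fits also called 0. Of all genes tested, 1.27% were called, 0.861% higher and 0.412% lower. Of the 10 members, 1 had jazQ libraries that did not overlap Col-0. That gene was SK2, higher in every jazQ library, with a log2 fold change of 0.14 ± 0.063 and an edgeR adjusted p of 0.37. In 9.00% of all genes tested, every jazQ library was likewise above every Col-0 library, and in 8.31% every one was below. For DHS1 the jazQ log2 fold change was -0.024 ± 0.0841 (edgeR adjusted p = 0.946), and its sign turned when a single library was left out. The median over members was -7.5e-05, and over all genes tested it was -0.00695.

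Against jazQ, 5 members rose in jazD and 0 fell in edgeR. Of all genes tested, 28.8% were called in this comparison, 15.0% higher and 13.8% lower. These were the same 5 genes as against Col-0, and the comparisons share the jazD libraries. DHS1 had a log2 fold change of 1.22 ± 0.0844 (adjusted p = 2.48e-07), AT2G45300 of 0.44 ± 0.0808 (adjusted p = 0.00131) and SK2 of 0.25 ± 0.0624 (adjusted p = 0.00811), all from edgeR. For DHS2 and CS they were 0.26 ± 0.0703 (edgeR adjusted p = 0.0148) and 0.18 ± 0.0637 (adjusted p = 0.0472). Of 20 alternatives, the CS call was lost in 11, the DHS2 call in 7, with an adjusted p of up to 0.101 in limma, and the SK2 call in 3, all on log2 TPM. Fits without jazQ replicate 2, jazD replicate 2 or jazD replicate 3 were among those that ended the DHS2 call, with log2 fold changes of 0.20, 0.25 and 0.22. Not called were DHQS, higher in every jazD library (0.17 ± 0.0761, edgeR adjusted p = 0.12), and AT1G48860, lower in every jazD library (-0.10 ± 0.0731, adjusted p = 0.328). Over all genes tested, 22.3% were higher in jazD without overlap and 21.9% lower.

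**Figure D3:**
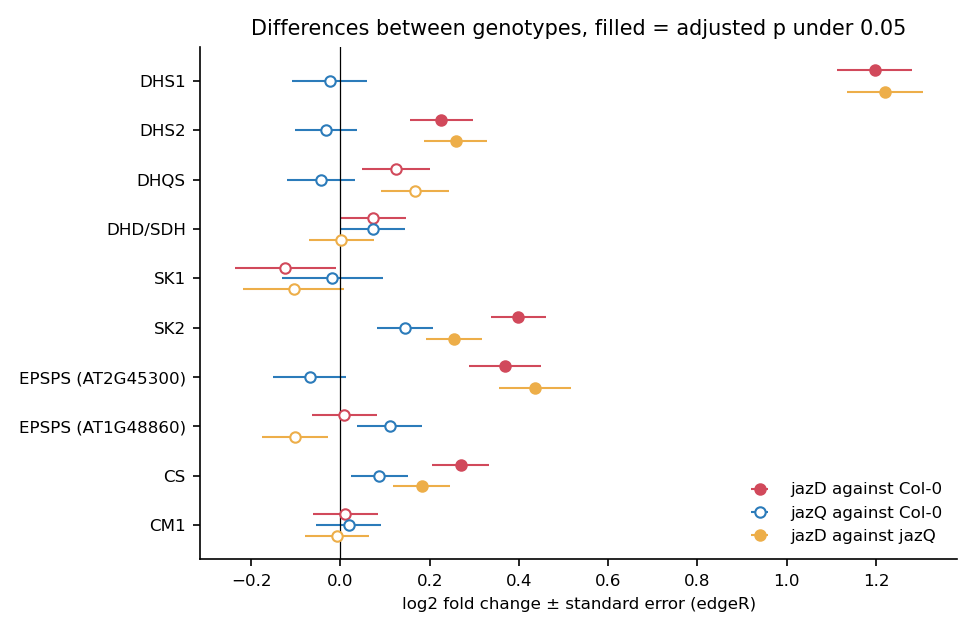
Log2 fold change (horizontal axis) of the 10 genes in 3 comparisons between genotypes. Points are edgeR estimates, bars are standard errors and filled points have an adjusted p under 0.05; the DHS1 points for jazD lie at 1.197 and 1.22, and no jazQ against Col-0 point is filled.

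Around these genes, 25 further genes of 5 lists were counted (other shikimate genes, chorismate mutases, enzymes that draw on chorismate, phenylalanine and tyrosine synthesis, and precursor supply). In jazD against Col-0, 7 rose, 4 fell and 14 were not called by edgeR, with a median log2 fold change of 0.0681. Of all genes tested, 13.3% were called higher and 12.5% lower in that comparison. In jazQ against Col-0, 0 of the 25 were called, where 1.27% of all genes tested were. Against Col-0, jazD had no call among the 3 other shikimate genes: beside DHS3, the shikimate kinase-like genes SKL1 and SKL2 had log2 fold changes of -0.16 ± 0.065 (edgeR adjusted p = 0.0895) and -0.077 (adjusted p = 0.396). Against jazQ, SKL1 fell in jazD without overlap (log2 fold change -0.29 ± 0.065, edgeR adjusted p = 0.00464), and SKL2 was not called (-0.17 ± 0.0608, adjusted p = 0.0547).

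Of the chorismate mutases beside CM1, the plastid form CM3 was at 12.6, 11.3 and 12.9 CPM in Col-0, 12.5, 14.9 and 12.6 in jazQ, and 21.8, 21.7 and 22.4 in jazD. Only its jazD libraries stood apart, with a log2 fold change against Col-0 of 0.84 ± 0.0901 (edgeR adjusted p = 1.63e-05). CM3 overlaps AT1G69380, which also rose (0.45 ± 0.106, edgeR adjusted p = 0.00731). The cytosolic form CM2 was at 8.06, 7.52 and 9.40 CPM in Col-0 and 7.94, 8.25 and 7.96 in jazD, and was not called (-0.052 ± 0.12, edgeR adjusted p = 0.798).

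Among 6 genes that draw on chorismate, 2 rose and 2 fell in jazD against Col-0, where 13.3% of all genes tested rose and 12.5% fell. ASA1, the anthranilate synthase alpha subunit that leads to tryptophan, was at 46.5, 50.4 and 52.6 CPM in Col-0, 54.3, 54.1 and 54.9 in jazQ, and 166, 149.8 and 147 in jazD. It had the largest rise of the 35 pathway genes examined, with a log2 fold change of 1.63 ± 0.0673 (edgeR adjusted p = 1.47e-09), and its beta subunit gene ASB1 rose by 1.28 ± 0.0716 (adjusted p = 3.3e-08). The second alpha subunit gene ASA2 fell by 0.23 (log2 fold change -0.23 ± 0.0631, edgeR adjusted p = 0.0159), a call lost without Col-0 replicate 3 (-0.20) or jazD replicate 1 (-0.21). The isochorismate synthase gene ICS2, on the path to salicylate, went from 3.77 ± 0.463 to 2.19 ± 0.316 CPM (-0.79 ± 0.178, edgeR adjusted p = 0.00563). Its copy ICS1 had a higher level, 52.2 ± 14.1 CPM in Col-0 (SD), and was not called in jazD (-0.36 ± 0.162, edgeR adjusted p = 0.144). In jazQ against Col-0 the ICS1 value was -0.50 ± 0.163 (edgeR adjusted p = 0.248).

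In phenylalanine and tyrosine synthesis, 3 of 9 genes rose and 1 fell in jazD against Col-0, beside 13.3% and 12.5% of all genes tested. PPA-AT, the prephenate aminotransferase, rose by 0.48 ± 0.0736 (edgeR adjusted p = 3.32e-04). Of the arogenate dehydratases, which form phenylalanine, ADT4 rose by 0.51 ± 0.0988 (edgeR adjusted p = 0.00201) and ADT5 by 0.70 ± 0.187 (adjusted p = 0.0199), while ADT1 had a log2 fold change of -0.42 ± 0.0725 (adjusted p = 8.35e-04). Of 5 precursor supply genes, the phosphoenolpyruvate translocator genes moved in opposite directions, CUE1 by 0.20 ± 0.0658 (edgeR adjusted p = 0.0418) and PPT2 by -0.52 ± 0.0812 (adjusted p = 4.26e-04). The CUE1 call was lost in 11 of 20 alternatives, and the ADT5 call in 5.

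**Figure D4:**
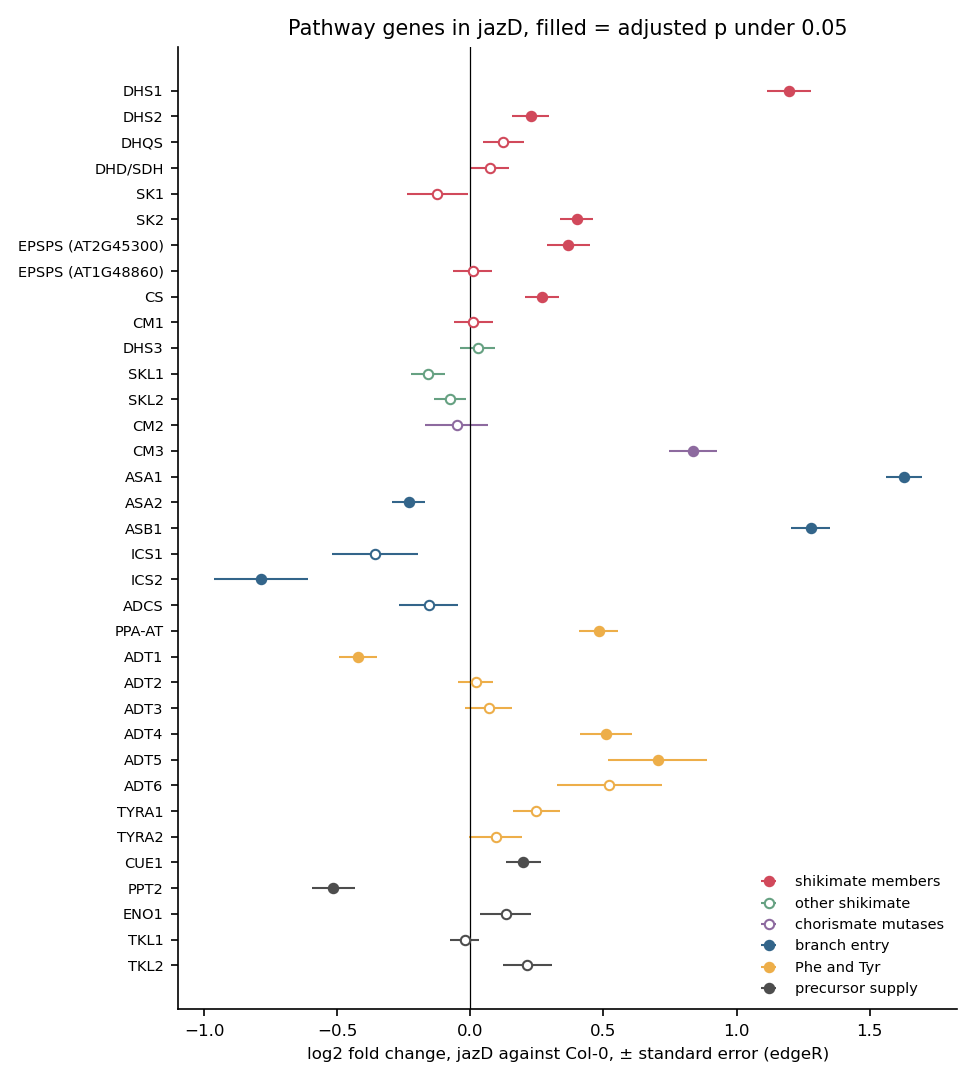
Log2 fold change in jazD against Col-0 (horizontal axis, edgeR, bars are standard errors) of the 10 members and the 25 further pathway genes, coloured by list, with filled points at an adjusted p under 0.05. ASA1 at 1.63, ASB1 at 1.28 and DHS1 at 1.197 lie furthest to the right, and ICS2 at -0.79 furthest to the left.

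The genes outside the 10 whose levels followed them most closely were found from the Pearson correlation over 9 libraries with the mean standardised log2 CPM of the members. They were AT1G15110, a phosphatidylserine synthase family gene (r = 0.983), AT3G07220, with an FHA domain (r = 0.977), AT-P4H-2, a prolyl 4-hydroxylase (r = 0.977), IAR4 (r = 0.976) and the exostosin family gene AT1G74680 (r = 0.976). All 9 points share the genotype difference, so the values describe likeness only.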

How the data were processed

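RNA-seq of 9 libraries, 3 per genotype, was used as deposited. The authors deposited gene tables of expected counts and of TPM. RSEM 1.2.25 and TAIR10 are named in the submitters' processing notes. Such expected counts divide reads among the genes they match. The strandedness is not given in the sources used here.

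Groups came from the sample titles. After rounding, the expected counts went into edgeR 4.0.16 (R 4.3.3): filterByExpr (minimum count 10) kept 19405 genes, libraries were scaled with TMM, and a robust quasi-likelihood fit to all 9 libraries gave the 3 contrasts. Adjusted p-values are Benjamini-Hochberg values over all genes kept. CPM values are on the TMM scale. The common biological coefficient of variation was 9.03%. Copies of an enzyme were summed before the same fit. TPM was used for levels, shares and alternatives. The edgeR procedure was also run on simulated counts. These held no replicate batch and no changes as small as those of DHS2, SK2, AT2G45300 and CS.

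All 10 members are named. From the pathway lists, genes called in jazD or jazQ against Col-0 and family partners of members are named, with ICS1 beside ICS2. The 5 genes most alike are also named. The members, the lists and the rules were chosen with earlier results of these data known. Alternatives were DESeq2 1.42.0 size factors and its Wald test, limma 3.58.1 on voom or on log2 TPM (pseudocount 1 or 0.1), other filters, only the groups compared, a replicate block, and each library left out.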

Additional observations from a re-analysis of the deposited data

How the results depend on the processing

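Members and counts of genes called were recomputed in all 3 comparisons, and 15 further pathway genes in jazD against Col-0. The settings were 10 alternatives, 9 fits that leave out 1 library, and TPM with libraries aligned at their median, added after seeing the data. Summed copies, shares and list counts were recomputed under fewer settings. For ICS1, the markers, the overlapping genes, and SKL1 and SKL2 against jazQ, no values were recomputed. DHS1 and SK2 were called in jazD against Col-0 in all 20, with log2 fold changes of 1.11 to 1.26 and 0.32 to 0.43. AT2G45300 was called in 17, CS in 18 and DHS2 in 13. On TPM without further scaling, the median of all genes was -0.0673 in jazD against Col-0. Members called higher in that comparison then numbered 2 with a pseudocount of 1 or 0.1 and 3 without a filter. All genes called were more than the 5006 of the main fit with a pseudocount of 1 and without a filter, and fewer with 0.1. Against jazQ, members called higher numbered 2 in each of these TPM settings and 3 on aligned TPM, and 3 to 5 with a library left out. All genes called against jazQ were fewer than the 5596 of the main fit in each of these TPM settings, and more on aligned TPM. With a library left out they numbered 4289 to 5746. Genes called in jazQ against Col-0 numbered 247, against 572 with the replicate block, 153 on TPM with a pseudocount of 0.1, 137 without a filter, and 136 to 367 with a library left out.

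Of 600 recomputed member values, 33 changed sign, 0 of them called, and 33 lost a call. In jazD against Col-0 on TPM with pseudocounts of 1 and 0.1, DHS3 went to -0.0445 and -0.0449, DHD/SDH to -0.00277 and -0.00287, AT1G48860 to -0.0635 and -0.0654, and CM1 to -0.0638 and -0.0661, and without a filter the values were those at 1. On aligned TPM they were -0.00533 for DHS3, -0.0243 for AT1G48860, -0.0246 for CM1 and, in jazQ against Col-0, 0.0126 for SK1. DHD/SDH in jazD against jazQ was -0.0563 and -0.0577 on TPM at these pseudocounts, -0.0563 without a filter and -0.049 aligned. With a library left out, jazD against Col-0 ran from -0.0337 to 0.0627 for CM1, -0.114 to 0.0459 for CM2, -0.0215 to 0.104 for DHS3 and -0.0567 to 0.0704 for AT1G48860. Against jazQ it ran from -0.0519 to 0.0431 for CM1 and -0.0669 to 0.0476 for DHD/SDH. In jazQ against Col-0 it ran from -0.00888 to 0.0617 for CM1, -0.113 to 0.0144 for DHQS, -0.0917 to 0.057 for DHS1, -0.0748 to 0.0294 for DHS2 and -0.101 to 0.0914 for SK1. The cause of these changes was not tested.

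Summed copies with a library left out ran from -0.0792 to 0.0107 for DAHP synthase and -0.0145 to 0.0684 for EPSP synthase in jazQ against Col-0. They ran from 0.157 to 0.247 for EPSP synthase in jazD against Col-0, and against jazQ from 0.133 to 0.218 for EPSP synthase and 0.176 to 0.224 for shikimate kinase. The DHS1 share in jazQ minus Col-0 ran from -0.832 to 1.24 points. Fitted alone, DHS3 was at 0.0278 in jazD against Col-0 and 0.0547 against jazQ. SK1 was at -0.124 and -0.105, and at -0.0187 in jazQ against Col-0. AT1G48860 was at 0.00841 and -0.102, and AT2G45300 at 0.437 in jazD against jazQ and -0.0686 in jazQ against Col-0. With a mean of at least 5 CPM, 2 of the other shikimate genes were called in jazD against jazQ, against 1 with the filter used, and ICS2 gave no value.

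The labels do not say that a replicate number marks a shared batch, and the numbers were not taken as pairs because only 6 of 9 same-number pairs had a correlation of deviations over 0.1 (0.015 to 0.306). All 9 libraries correlated best with a library of their own number, a hint of pairing from the data and not from the design. With the replicate block, EPSP synthase summed over copies passed in jazD against jazQ (0.175, edgeR adjusted p = 0.0234), 5 members were again called against Col-0 and 5 against jazQ, and 6055 genes against 5006 were called in jazD against Col-0. With 3 libraries a group, depth and spread limit low genes such as SK1.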
